A study of Homo sapiens with 6 samples.

Results

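The mitochondrial ribosomal protein genes were followed in a map of TLE3 on chromatin. They were taken as the protein-coding genes of the RefSeq table on GRCh38 whose whole symbol is MRPL or MRPS with a number and at most 1 letter. This gave 77 genes of 20037 protein-coding genes, 49 named for the large subunit (MRPL) and 28 for the small subunit (MRPS). The rule used names only and no measured value. The assay was ChIP-seq, which sequences the DNA pulled down with an antibody, here to TLE3, and the cells were MDA-MB-453, an established line from a human breast cancer. In the 2 libraries labelled siFOXA1 the forkhead factor FOXA1 had been silenced transiently, and in the 2 libraries labelled siNS it had not. Both groups come from this 1 line, were treated with an extra cross-linker ahead of formaldehyde, and used the same antibody. Both input libraries, whose labels give the line as MDA-MB-454, were not analysed here.

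Mitochondrial ribosomes translate the few proteins encoded by mitochondrial DNA, which are subunits of the respiratory chain complexes and of the ATP synthase. All of their proteins are encoded in the nucleus, made in the cytosol and imported, so the organelle's protein synthesis depends on nuclear promoters. Many of these promoters are rich in CG and are known targets of NRF1, of the ETS factor GABP and of YY1. TLE3 is a corepressor of the Groucho family that has no DNA recognition of its own and is recruited by other factors.

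The data were 1 list of peaks per library, with a position and a score for each peak. There were 45109 peaks in siNS 1 and 46589 in siNS 2, and 12253 in siFOXA1 1 and 13763 in siFOXA1 2. Since the lists give no counts of reads, depth is unknown, and wider binding cannot be told apart from a deeper library. FOXA1 silencing itself and the expression of the genes were not measured by these files. Peaks of all lists that share at least 1 bp were merged into 72272 regions, and a gene counted as having a region when one lay within 1 kb of either of its ends. A siNS consensus region holds a peak of both siNS libraries.

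Nearly all mitochondrial ribosomal protein genes had a TLE3 region at an end in the siNS libraries, and very few had one in the siFOXA1 libraries. In siNS 1, 70 of the 77 genes had one (90.9%), against 63.1% of all protein-coding genes. In siNS 2, 64 had one (83.1%), against 58.1% of all. In siFOXA1 1 it was 3 genes (3.9%), against 3.51% of all, and in siFOXA1 2 it was 2 genes (2.6%), against 3.63% of all. Both siNS libraries thus stood above both siFOXA1 libraries, and the siFOXA1 shares were near the background.

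The mean share was 87% ± 5.51 in siNS and 3.25% ± 0.918 in siFOXA1 (SD, n = 2 each), a difference of 83.8 percentage points that exceeded the spread between replicates. Over the 6 ways to relabel the libraries, the exact permutation p (two-sided) was 0.333, which is the smallest value that 2 libraries against 2 allow. Of the other 19960 protein-coding genes, 63% and 58% had a region in siNS 1 and siNS 2, and 3.51% and 3.63% in siFOXA1 1 and siFOXA1 2. The mitochondrial ribosomal protein genes therefore exceeded other genes by 27.9 and 25.1 percentage points in the siNS libraries. In the siFOXA1 libraries they differed by 0.384 and -1.03 points. The excess differed between the groups by 26.8 points (exact permutation p = 0.333, n = 2 each).

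A siNS consensus region lay at 61 of the 77 genes (79.2%), against 55.1% of all protein-coding genes. By subunit it lay at 38 of 49 large subunit genes (77.6%) and 23 of 28 small subunit genes (82.1%). The 3 genes with a region in either siFOXA1 library (3.9%, against 4.92% of all) were large subunit genes. Products of MRPS18A and MRPS30 are placed in the large subunit in the newer naming carried by their RefSeq synonyms, and the grouping here follows the symbols. Another 8 genes had a region in siNS 1 alone, 2 in siNS 2 alone, and 1 (MRPL35) had separate regions of each siNS library. Among all 20037 protein-coding genes these counts were 1441, 434 and 165. The other 5 of the 77 genes had no region at an end in any library. This leaves 72 with one in either siNS library (93.5%, against 65.3% of all).

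**Figure D1:**
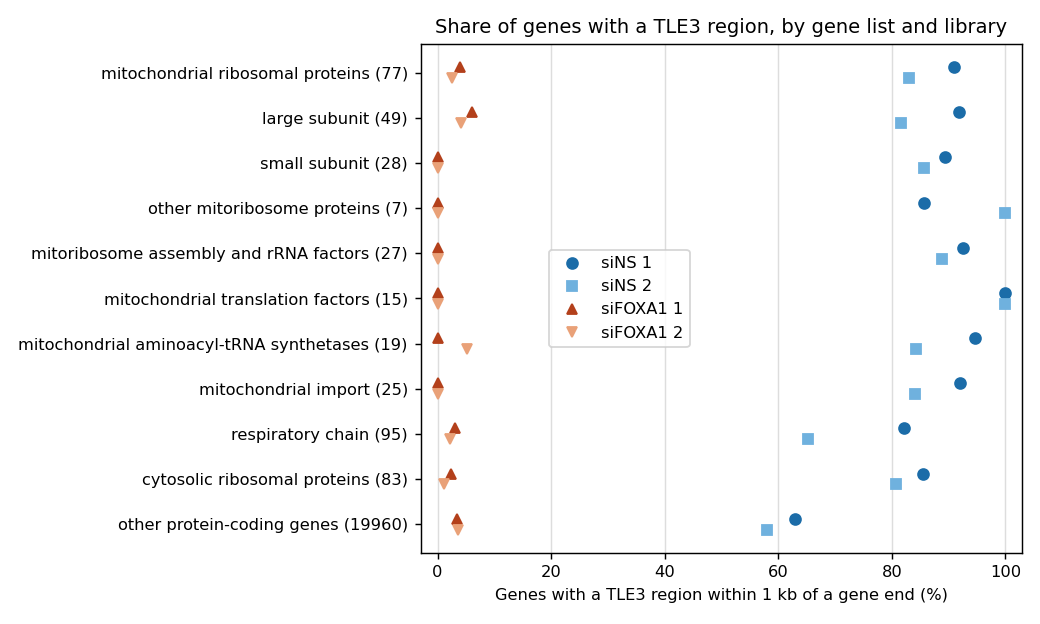
Share of genes with a TLE3 region within 1 kb of a gene end (x axis, percent) for each gene list (y axis, number of genes in brackets), with 1 point per library. The mitochondrial ribosomal protein genes sit at 90.9% and 83.1% in the siNS libraries and at 3.9% and 2.6% in the siFOXA1 libraries, where other protein-coding genes sit at 3.51% and 3.63%.

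With the full lists, a high share in siNS was also seen at the other genes of mitochondrial protein synthesis. Of 15 mitochondrial translation factor genes, which include the elongation factor genes TUFM and GFM1, all had a siNS consensus region. Of 27 mitoribosome assembly and ribosomal RNA factor genes, 22 had one (81.5%). Of 7 further mitoribosome protein genes with other symbols, among them DAP3 and PTCD3, 6 had one. Mitochondrial aminoacyl-tRNA synthetase genes had one in 16 of 19 cases (84.2%) and import genes of the TIMM and TOMM families in 20 of 25 (80%). Cytosolic ribosomal protein genes had one in 65 of 83 cases (78.3%). Respiratory chain and ATP synthase genes, taken by symbol and so including the NDUFAF assembly factor genes, had one in 57 of 95 cases (60%), against 55.1% of all genes. By library they had a region in 82.1% of cases in siNS 1 and 65.3% in siNS 2. At start sites listed by RefSeq, 54 of 77 respiratory chain genes had a siNS consensus region (70.1%), against 57.9% of all genes with a listed start. For the mitochondrial ribosomal protein genes it was 82.6% there. NDUFAB1 was counted both in the respiratory chain list and among the mitoribosome assembly factors. None of these differences between lists was tested. In either siFOXA1 library 1 synthetase gene (5.26%), 2 cytosolic ribosomal protein genes (2.41%) and 3 respiratory chain genes (3.16%) had a region. The share over all genes was 4.92%. No gene of the other 4 lists had one, and those lists hold only 7 to 27 genes.

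The regions at mitochondrial ribosomal protein genes were of moderate strength. Strength was read as the percentile of a peak's score within its own list, that is the share of the list's peaks that score no higher. Over the 69 siNS consensus regions at these genes the mean percentile of both siNS libraries had a median of 57.2 (quartiles 46.7 and 70.8), against 69.4 (53.1 and 83.2) over 10586 regions at other gene ends. By library the median was 66.2 in siNS 1 and 49.8 in siNS 2, against 77.2 and 63.7 at other gene ends. Only 3 of the 69 regions (4.35%) passed the 90th percentile, against 12.5% of those at other gene ends. They were also narrower, with a median width of 825 bp against 1062 bp. The siNS libraries ranked them differently, since 50 of the 69 (72.5%) stood higher in siNS 1, as did 84.8% at other gene ends.

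The excess over other genes appeared when lower scoring peaks of the siNS lists were included. Among the 5000 highest scoring peaks, mitochondrial ribosomal protein genes were reached less often than other genes, at 5.19% against 14% in siNS 1 and 1.3% against 6.7% in siNS 2. With 20000 peaks the shares were 63.6% against 50.2% in siNS 1 and 33.8% against 34.8% in siNS 2. With 30000 peaks they were 81.8% against 58.1% and 58.4% against 47.6%. When each list was limited to the peaks that reached its median score, 29 of the 77 genes had a siNS consensus region, with 38.3% of all genes called. Their difference from other genes was then -0.669 percentage points. By library, a region was then found at 72.7% of the genes in siNS 1, against 53.3% of other genes, and at 40.3% in siNS 2, against 40.1%. When every list was cut to its 12249 highest scoring peaks, the length of the shortest list, 12 genes had one (15.6%), against 19.5% of all genes. At equal length 28.6% of the genes had a region in siNS 1 (35% of all genes), 16.9% in siNS 2 (20.9% of all), 3.9% in siFOXA1 1 (3.44% of all) and 2.6% in siFOXA1 2 (3.21% of all). Of the 7 comparison lists 5 were also below the 19.5% of all genes at equal length, with siNS consensus regions at 1 of 27 assembly factor genes (3.7%), 15.8% of synthetase genes, 12% of import genes, 15.7% of cytosolic ribosomal protein genes and 11.6% of respiratory chain genes. The translation factors had 26.7% and the further mitoribosome protein genes 2 of 7. For the mitochondrial ribosomal protein genes the siNS shares were then still above the siFOXA1 shares, by 19.5 points on average. The difference in excess over other genes turned to -5.16 points.

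**Figure D2:**
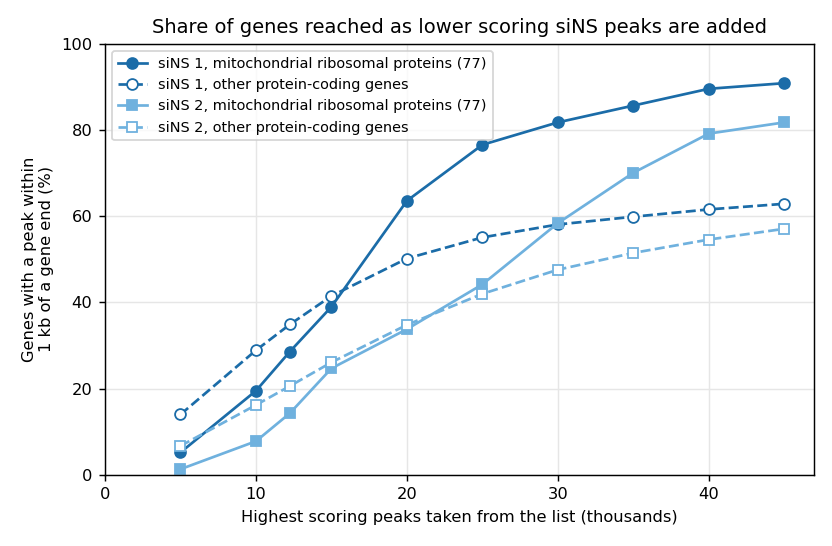
Share of genes with a peak within 1 kb of a gene end (y axis, percent) against the number of highest scoring peaks taken from each siNS list (x axis, in units of 1000 peaks), for mitochondrial ribosomal protein genes (filled, solid) and other protein-coding genes (open, dashed). The filled points start below the open ones, at 5.19% against 14% in siNS 1, and end above them, at 90.9% against 62.9%.

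The regions lay on the start sites of the genes. The RefSeq promoter table gave start sites for 69 of the 77 genes. It holds none for MRPL2, MRPL10, MRPL13, MRPL15, MRPL21, MRPL23, MRPL35 and MRPS28. Whether a peak lay in an exon or an intron was not read. A start site was listed for 56 of the 61 genes, and 55 of these had the region within 1 kb of the start, and the exception was MRPL36, whose region lay at the end next to NDUFS6. The region spanned the start site itself in 50 of the 55 (90.9%), close to the 91.3% of other genes. Its centre lay 3 bp downstream of the start at the median (quartiles -130 and 132 bp), against 81.5 bp downstream (quartiles -92.5 and 250 bp) at other genes. The centre was thus downstream in 50.9% of cases, against 63.1% at other genes. This difference was not tested.

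**Figure D3:**
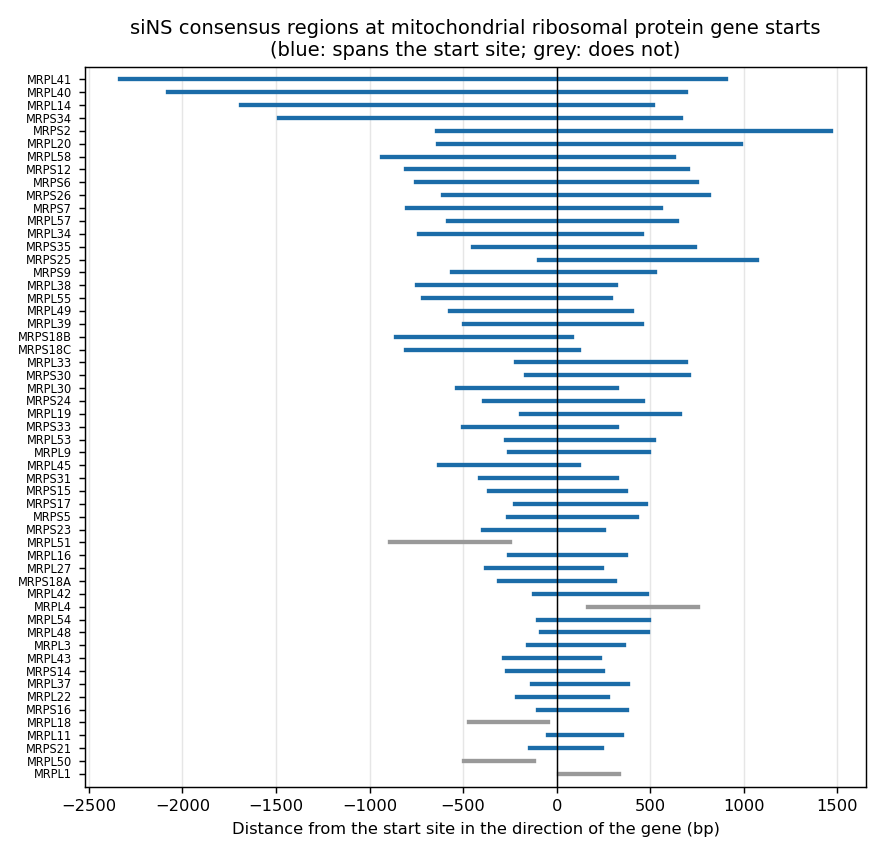
Extent of the siNS consensus region nearest to the start site of each mitochondrial ribosomal protein gene (y axis), as distance in bp from the start in the direction of the gene (x axis). Regions that span the start are blue (50 genes) and the others grey (5 genes), and the 55 regions are ordered by width, from MRPL1 with 321 bp to MRPL41 with 3236 bp.

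Reading the start sites in place of gene ends changed the siNS consensus call of 3 genes. MRPL36 lost its call, and MRPL24 and MRPL44 gained one. MRPL24, a large subunit protein gene, and MRPL44, whose product resembles a double-stranded RNA nuclease, have listed starts inside their RefSeq spans and had no region at an end. At the start of MRPL44 (chromosome 2, 223957463) a siNS consensus region had score percentiles of 87 in siNS 1 and 65.9 in siNS 2. At the start of MRPL24 (chromosome 1, 156741088) they were 59.4 and 13.7. Of the 69 genes with a listed start, 57 had a siNS consensus region there (82.6%), against 57.9% of all genes in the table. Only MRPL32, MRPS10 and MRPS22 had no peak of any library at an end or at a listed start. Their nearest siNS 1 peaks lay 19996, 8946 and 14297 bp from the start site.

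The strongest regions at a start site were those at MRPL41, MRPL34 and MRPS2. Those at MRPL41 and MRPS2 also lay at ends of PNPLA7 and PIERCE1, and a siNS consensus region of MRPL34 at an end of ABHD8. MRPL41, a large subunit protein gene on chromosome 9 (137551879 to 137552555), had a region of 3236 bp that covered the whole gene, with score percentiles of 97.8 in siNS 1 and 91.1 in siNS 2. MRPL34 (chromosome 19, 17292573 to 17306843), which encodes a counterpart of a bacterial large subunit protein, had 96 and 84 at its listed start at 17305653, and 53.2 and 53 at another listed start at 17292573. MRPS2 (chromosome 9, 135499965 to 135504673), a small subunit protein gene, had 87.2 and 85.6. None of the 3 had a siFOXA1 peak at an end. Sequence just upstream of their starts is shown with that of MRPL32, which had no peak, and of MRPL33, which had peaks in all 4 libraries and was added after its values were seen. Each is read 5′ to 3′ on the strand of the gene up to the base before the start, from RefSeq on GRCh38.p14, and is cut where a gene on the other strand starts. Capitals mark matches to the motifs listed further on, on either strand.
MRPL41: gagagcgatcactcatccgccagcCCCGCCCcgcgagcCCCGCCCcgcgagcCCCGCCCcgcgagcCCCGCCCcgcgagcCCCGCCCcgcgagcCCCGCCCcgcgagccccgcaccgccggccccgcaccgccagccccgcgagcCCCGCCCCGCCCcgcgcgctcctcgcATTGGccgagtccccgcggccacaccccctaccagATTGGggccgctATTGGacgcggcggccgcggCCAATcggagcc
MRPL34: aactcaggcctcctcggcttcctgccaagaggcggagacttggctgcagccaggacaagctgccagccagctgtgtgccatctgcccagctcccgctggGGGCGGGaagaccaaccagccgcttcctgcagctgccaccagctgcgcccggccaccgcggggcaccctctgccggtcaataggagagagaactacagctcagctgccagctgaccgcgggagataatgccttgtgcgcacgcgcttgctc
MRPS2: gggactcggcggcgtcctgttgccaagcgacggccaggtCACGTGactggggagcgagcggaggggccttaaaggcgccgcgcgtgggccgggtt
MRPL32: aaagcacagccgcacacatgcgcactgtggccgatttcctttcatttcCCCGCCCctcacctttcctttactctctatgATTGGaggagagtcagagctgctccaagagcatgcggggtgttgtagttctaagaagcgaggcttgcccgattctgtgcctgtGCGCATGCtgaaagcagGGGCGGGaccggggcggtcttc
MRPL33: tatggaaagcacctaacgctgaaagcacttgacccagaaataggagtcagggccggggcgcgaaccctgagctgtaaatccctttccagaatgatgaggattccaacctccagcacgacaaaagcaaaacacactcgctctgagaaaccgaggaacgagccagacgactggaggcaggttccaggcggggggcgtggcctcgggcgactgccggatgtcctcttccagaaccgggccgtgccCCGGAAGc

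These stretches lie on the plus strand at chr9:137551629-137551878, chr19:17305403-17305652, chr9:135499870-135499964, chr7:42932175-42932375 and chr2:27771469-27771718. The MRPL41 stretch was 82.8% G and C with 43 CG dinucleotides. It held 8 matches to the GC box, of which some overlap, and 4 to the CCAAT box. The MRPL34 stretch held 1 GC box, and the short MRPS2 stretch 1 E-box. MRPL32 held an NRF1 match, 2 GC boxes and a CCAAT box in 57.2% G and C. The MRPL32 stretch thus held more kinds of motif than the 3 with the strongest regions, though the stretches differ in length. Of the other genes without a peak, MRPS10 held ETS, YY1 and GC box matches in its promoter and MRPS22 an ETS match alone. MRPL33 held 1 ETS match, 8 bases before its start.

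Among large subunit genes the level varied from the top of the siNS lists to their lower end. MRPL21 had the strongest region at any of the 77 genes, with percentiles of 99.8 in siNS 1 and 99.7 in siNS 2. That region lay at its end away from the neighbouring gene IGHMBP2, and the one at its other end had 68.5 and 61.5. No start site was listed for MRPL21. MRPL38 had 85.8 and 86.7. MRPL58, whose product releases peptides from stalled mitochondrial ribosomes, had 88.4 and 74.6. MRPL14 had 79.4 and 79.6. MRPL4 and MRPL3, which encode counterparts of core bacterial proteins, had 71.5 and 43, and 64.7 and 55.4. MRPL11, of the stalk base, had 55.1 and 38.2. MRPL12, of the stalk itself, was called in siNS 1 alone, at percentile 54.8, and the nearest siNS 2 peak lay 7705 bp from its start site. Taking each gene's strongest consensus region, the lowest were those of MRPL50 (13.5 and 17.1), MRPL1 (22.4 and 21.7) and MRPL15 (42.9 and 4.01).

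Small subunit genes covered a similar range below its top. After MRPS2, the strongest were MRPS6, with percentiles of 90.2 in siNS 1 and 77.3 in siNS 2, MRPS34 with 80.2 and 80.7, and MRPS31 with 82.5 and 76.3. MRPS7, an early assembling protein gene, had 75.4 and 68.4. MRPS16 had 71.8 and 51.8. MRPS12, whose product lies at the decoding centre, had 64.4 and 42.6. The lowest were MRPS21 (34.6 and 19.8) and MRPS23 (19.4 and 35.5). The 3 paralogs of the S18 protein differed in the order of the libraries. MRPS18A had 51.5 in siNS 1 and 30.2 in siNS 2, and MRPS18C had 52.7 and 71.4. MRPS18B had a region at its start with 65.5 and 36.1 and a stronger one at its other end with 88.3 and 58.1, and these also lay at ends of ATAT1 and PPP1R10. Gaps between the siNS libraries at 1 gene were often as wide as the gaps between neighbouring genes in this order. For 16 of the 61 genes the strongest region stood higher in siNS 2 and for 45 in siNS 1.

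**Figure D4:**
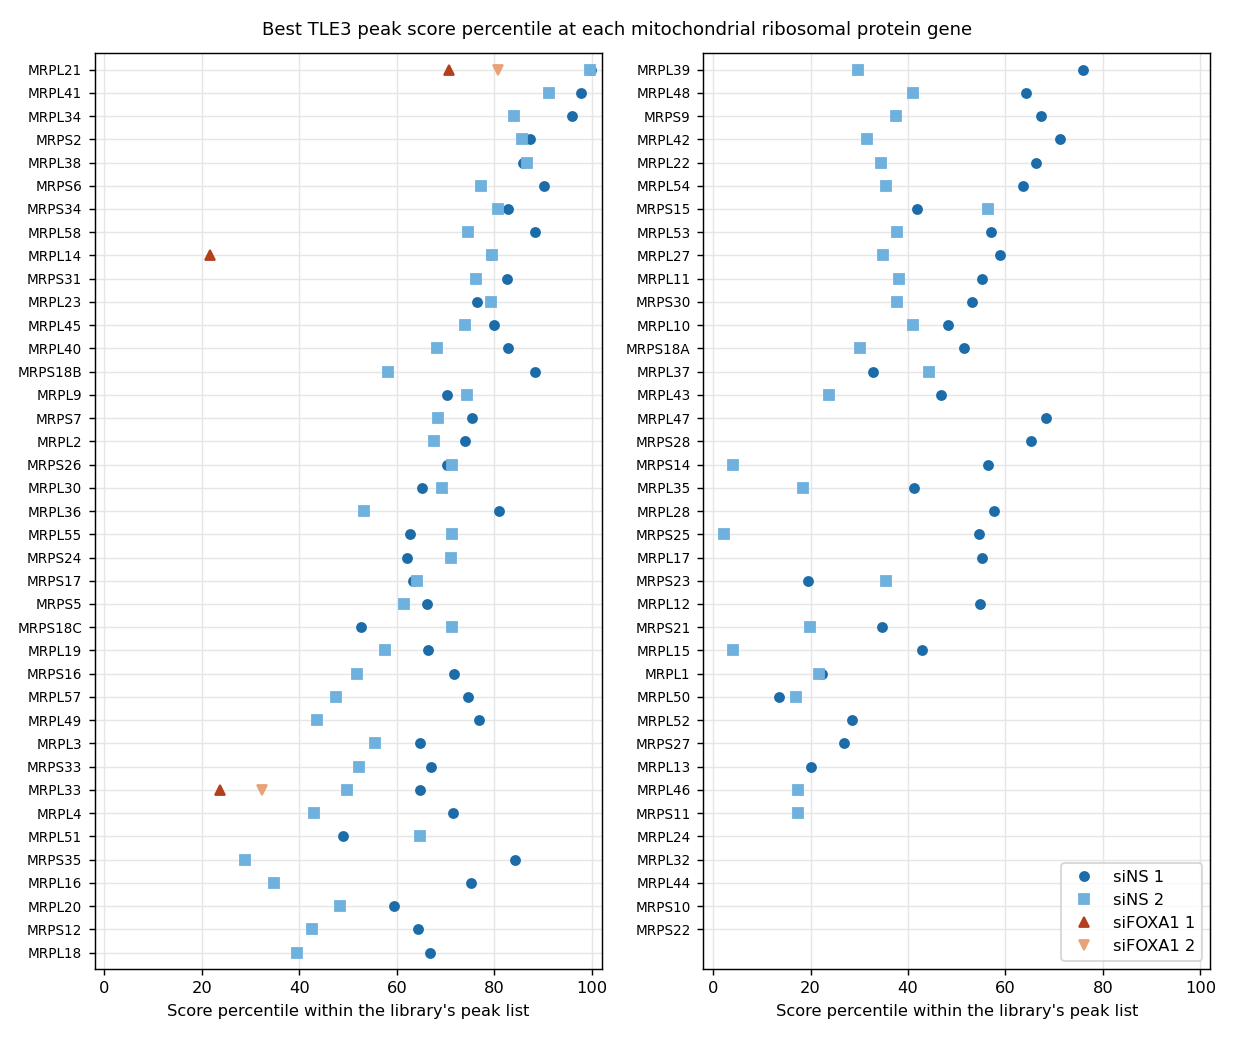
Best score percentile within each library's peak list (x axis) at an end of each of the 77 mitochondrial ribosomal protein genes (y axis, ordered by the mean of both siNS libraries with a missing peak counted as 0). The siNS points run from MRPL21 at 99.8 and 99.7 down to the 5 genes at the bottom with no point, and siFOXA1 points appear at MRPL21, MRPL14 and MRPL33 alone.

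Regions of the siFOXA1 libraries remained at 3 large subunit genes. At MRPL21 (chromosome 11, 68891278 to 68903832) both siFOXA1 libraries had a peak at the end away from IGHMBP2, with score percentiles of 70.7 in siFOXA1 1 and 80.8 in siFOXA1 2. The peaks lay at 68890860 to 68891294 and at 68890768 to 68891240, inside the siNS region of 68890062 to 68892131. The second siNS consensus region of MRPL21, at its end next to IGHMBP2, had no siFOXA1 peak. At MRPL14 (chromosome 6) siFOXA1 1 alone had a peak, at 44127188 to 44127535 over a listed start (44127308), at percentile 21.6. At MRPL33 (chromosome 2) both had weak peaks, at percentiles 23.8 and 32.4, and these did not overlap each other. The siFOXA1 1 peak lay at 27771502 to 27771799 and that of siFOXA1 2 at 27772158 to 27772412, at opposite edges of the merged region of 27771502 to 27772412. Within 2 kb of an end 5 genes had a siFOXA1 peak, with MRPL58 and MRPS25 added, which is 6.49%, against 6.81% of all genes.

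Few regions persisted, here and at other gene ends. Of the 69 siNS consensus regions at these genes, 3 overlapped a siFOXA1 region, which is 4.35% (exact 95% binomial interval 0.906 to 12.2%, counting error only). It was 3 for siFOXA1 1 and 2 for siFOXA1 2. At other gene ends 6.29% persisted (5.84 to 6.77%), and 2.98% when those regions were weighted to the strength of the 69. Away from gene ends 24.9% persisted. With lists of equal length, which hold the stronger regions, 2 of 12 persisted (16.7%), against 15.3% at other gene ends. The nearest siFOXA1 peak lay 79.7 kb from a gene end at the median in siFOXA1 1 and 92.9 kb in siFOXA1 2, against 75.9 and 68.6 kb for other genes. Within 10 kb there was one at 13% of the genes in each siFOXA1 library, against 13.4% and 14.6% of other genes.

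Mitochondrial ribosomal protein genes often lie close to another gene. Another protein-coding gene end lay within 1 kb of 42 of the 77 genes (54.5%), against 28.4% of other genes. Among genes with such a neighbour 31 of the 42 had a siNS consensus region (73.8%), against 74.2% of all protein-coding genes of that kind. Among genes without one, 30 of 35 had it (85.7%), against 47.5% of all genes of that kind. By library, genes with a close neighbour had a region in 88.1% of cases in siNS 1 (82.3% of all genes of that kind) and in 81% in siNS 2 (76.9% of all of that kind). The excess over other genes was thus smaller in each siNS library among genes with a close neighbour than over all 77 genes, a contrast that was not tested. For 29 of the 61 genes the region also lay at an end of another protein-coding gene, and a peak list cannot assign it to either. Such partners included SARS2, the mitochondrial seryl-tRNA synthetase gene, beside MRPS12, NDUFS6, a complex I subunit gene, beside MRPL36, and TWNK, the mitochondrial DNA helicase gene, beside MRPL43. FAU, a cytosolic ribosomal protein gene, starts 49 bp from MRPL49. Only 3 of the 29 genes shared the region with a gene of the comparison lists. No such count for other genes is given here. MRPL46 and MRPS11 start 320 bp apart in opposite directions and shared 1 weak peak of siNS 2 at percentile 17.5, with none in siNS 1.

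Promoter composition of these genes lay in the middle of the range of other genes. The 300 bases from 250 before to 50 after the start held 60.3% G and C at the median (quartiles 56 and 65.7%), against 62.7% (53.7 and 70%) at other genes, and 24 CG dinucleotides against 22. In the third of 10 bins of G and C content, 10 of 13 genes had a siNS consensus region, against 43.2% of other genes. In the fourth it was 11 of 14 against 54.2%, and in the fifth 8 of 10 against 61.3%. The gap was smaller in the sixth, with 7 of 9 against 68.6%, and in the seventh, with 3 of 4 against 73.9%. The first and second bins had 1 of 1 and 2 of 4, against 11.7 and 25.8%. In the 3 richest bins all 14 genes had one, 6, 5 and 3 by bin, against 77.1, 77.9 and 78.3% of other genes. Over the 69 genes with sequence 81.2% had one, against 58.7% of other genes weighted to the same composition.

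Short motifs known from these promoters were searched as literal strings on both strands of the same 300 bases. The ETS string CCGGAAG was found in 29 of 69 promoters (42%), against 14.2% of all 15842 promoters. The YY1 string AAGATGGC was found in 20 (29%), against 3.86%. The NRF1 string GCATGCGC was found in 6 (8.7%), against 4.28%. The GC box GGGCGGG was found in 33 (47.8% against 44.1%), the CCAAT box CCAAT in 20 (29% against 36.4%) and the E-box CACGTG in 7 (10.1% against 8.82%). TATAAA was found in 2 (2.9% against 9.75%) and TGACGTCA, the CRE, in none (2.56% of all). The forkhead strings TGTTTAC or TGTTTGC were found in 2 promoters, those of MRPL17 and MRPS18C, which is 2.9% against 5.76% of all. A match is a run of letters and does not show binding.

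Across all genes the ETS string was more frequent in promoters with a siNS consensus region at the start (19.2%) than without (7.26%), as was the YY1 string (5.06% against 2.22%). TATAAA was less frequent there (5.02% against 16.2%). Among the mitochondrial ribosomal protein genes ETS matches were as frequent in the 57 promoters with a siNS consensus region (42.1%) as in the 12 without (41.7%). Of these 12, only MRPL32, MRPS10 and MRPS22 had no siNS region at the start, and the others had one of siNS 1 or siNS 2 alone. The 12 are thus not a set of promoters without TLE3 peaks. YY1 matches were found in 13 of the 57 (22.8%) and in 7 of the 12 (58.3%), and NRF1 matches in 3 of each (5.26% and 25%). These counts were not tested. Of 21 YY1 matches 17 were on the strand of the gene and 15 began at or after the start site. The place differed between the sets. In promoters with a siNS consensus region 12 of 13 matches began at or after the start, and in those without one 3 of 8 did. The string contains ATG, so a match may be part of the start of the coding sequence; this was not examined. To show its place, 28 bases around it are given for 5 genes, with the motif in capitals. MRPL38 and MRPS7 had a siNS consensus region at the start, and MRPS10, MRPL46 and MRPL47 did not. At the start of MRPL46 there was a peak of siNS 2 alone (percentile 17.5), and at that of MRPL47 a peak of siNS 1 alone (percentile 68.4).
MRPS10: cgggaccggcAAGATGGCggcgcggaca
MRPL46: gggagaacgaAAGATGGCggcgcccgta
MRPL47: gccctcacttAAGATGGCcacatcctgc
MRPL38: ggccggagggAAGATGGCggcgccctgg
MRPS7: gtggccagccAAGATGGCtgcccccgca

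These windows lie at chr6:42217835-42217862, chr15:88467363-88467390 and chr17:75904861-75904888 on the minus strand and at chr17:75261888-75261915 on the plus strand. In these 4 the motif is on the strand of the gene and began 9, 8, 6 and 19 bases after the start site. The window of MRPL47, at chr3:179604713-179604740, is read on the plus strand, opposite to the gene, and its motif lies before the start.

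**Figure D5:**
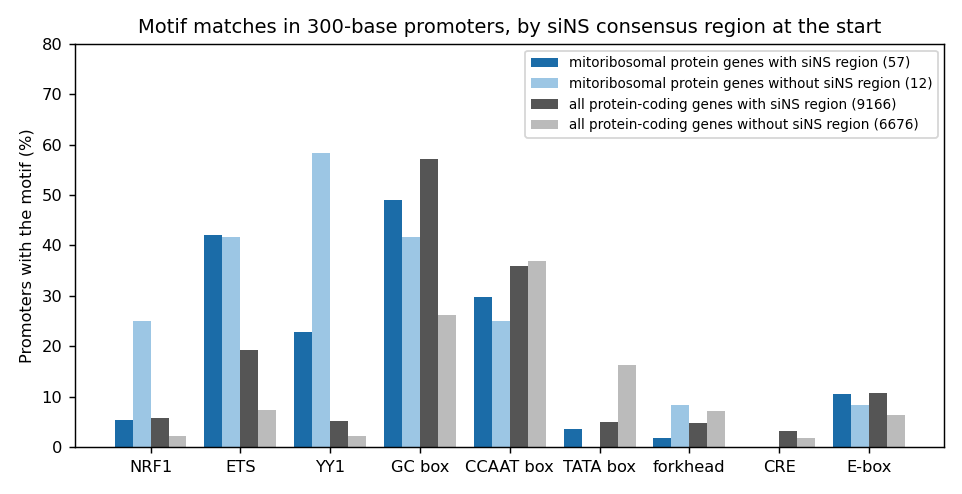
Share of 300-base promoters with a match to each motif (bars, percent, axis from 0) for mitochondrial ribosomal protein genes with (57) and without (12) a siNS consensus region at the start, and for all protein-coding genes with (9166) and without (6676) one. YY1 matches reach 22.8% and 58.3% at the mitochondrial ribosomal protein genes and 5.06% and 2.22% over all genes.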

How the data were processed

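Each TLE3 library had 1 list of peaks without a header, made by the authors. Trim Galore, BWA (0.7.5a), SAMtools, MACS2 and the build hg38 are named in the submitters' processing notes, without settings. How the inputs entered is not given in the sources used. The score in the fifth column is the authors' deposited value. Its definition was not found, so it served to order peaks inside 1 list. Groups and replicate numbers came from the titles. The titles call the libraries biological replicates, though no culture is named. The p-values thus refer to these libraries alone, and those given sit at the smallest value the design allows. For siFOXA1 2 the list's name carries another number. Mitochondrial peaks (4, 3, 4 and 9 in siNS 1, siNS 2, siFOXA1 1 and siFOXA1 2) were left out.

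Gene spans came from RefSeq on GRCh38.p14, start sites and promoter sequence from a RefSeq promoter table with 15842 of the 20037 genes. Library shares were compared with an exact permutation test. Genes were named by a rule that took those with a siFOXA1 region or no peak, the 10 strongest, the 5 weakest and a set of known members. The genes, lists, motifs and tests were chosen with earlier results of these data known. Of the listed symbols, 1 had no match. Python 3.11.15, numpy 2.4.6, pandas 2.3.3, scipy 1.17.1, matplotlib 3.10.9 and bedtools 2.31.1 were used. In a test on simulated data all 1000 calls at 600 genes were recovered with 0 false calls. On the real lists bedtools called the same genes for each library's own peaks without merging. The calls on merged regions were not compared with bedtools.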

Additional observations from a re-analysis of the deposited data

How the results depend on the processing

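The difference in share between siNS and siFOXA1 kept its direction under all 13 alternatives, from 19.5 percentage points with lists of equal length to 87.7 without siNS 2. It was 79.9 to 87.7 points when 1 library was left out. With the replicate numbers as a block (replicate block) it was 83.8 points and the difference in excess over other genes 26.8 points, each with an exact sign-flip p of 0.5, the smallest that 2 pairs allow. Deviations of same-numbered libraries had a correlation of 0.00355 across genes, which are not independent replicates. Only 4.92% of all genes had a region in either siFOXA1 library, so this value cannot show whether the libraries were paired. The main comparison left them unpaired. The difference in excess was 25.4 to 28.2 points when 1 library was left out. It was 10.2 points with scores from the median up and turned to -5.16 points with lists of equal length. The count of 61 genes with a siNS consensus region was 64 to 70 when 1 siNS library was left out. It was 29 with lists limited to scores from the median up, 12 with lists of equal length and 30 among genes with no other gene end within 1 kb, where only 35 genes were tested.

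The excess of 24.2 points over other genes in siNS was 26.3 points within 500 bp, 38.3 among genes with no other gene end within 1 kb, 21.8 against genes with a peak within 100 kb and 25.1 to 27.9 when 1 siNS library was left out. It turned to -0.669 points with lists limited to scores from the median up and to -3.94 with lists of equal length, settings that leave fewer and higher scoring siNS peaks. With scores from the median up the shares by library were still 72.7% against 53.3% in siNS 1, and 40.3% against 40.1% in siNS 2. The count of 3 genes with a siFOXA1 region was 5 within 2 kb (6.49% against 6.81% of other genes), 1 with scores from the median up (1.3% against 2.21%), 1 among genes with no other gene end within 1 kb, and 2 to 3 when 1 siFOXA1 library was left out. The persisting share was 16.7% with lists of equal length (15.3% at other gene ends) and 2.9 to 4.35% when 1 library was left out. The median percentile was 44.3 without siNS 1 and 63.4 without siNS 2. Calling each library by its own peaks without merging, an alternative chosen after seeing the data, left the difference at 83.8 points. Peak lists without counts cannot show how far depth limits the shorter lists.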
